A study of Mus musculus with 23 samples.

Results

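The Z-disc, M-band and filament scaffold genes encode the structural and assembly proteins of the sarcomere other than its myosins, troponins, actins and tropomyosins. They were chosen by symbol from a list of 39, and all 39 were among the 32793 rows of the deposited gene tables. Of these, 33 passed a filter on low counts that left 14187 genes to test. RNA sequencing of poly(A) RNA was performed on C2C12 cells, a mouse myoblast line that fuses into myotubes when serum is lowered. One set of cultures was control (WT) and the other Runx1KO (KO), a label that the submitters give for loss of the transcription factor Runx1. Both were sampled on day 0 in growth medium, which held 20% fetal bovine serum, and on days 1, 3 and 6 in differentiation medium with 2% horse serum, in 3 libraries per group, except WT day 0 with 2 libraries analysed here. Sample titles name day 6, whereas the series text gives 5 days as the last time. The labels say neither whether the KO line was 1 clone nor whether replicates were separate cultures, so p-values measure the spread between these libraries, which may be technical.

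A sarcomere is built between a pair of Z-discs, where alpha-actinin crosslinks the ends of thin filaments, and is held together at its centre by the M-band, where myomesins crosslink thick filaments. Titin spans from the Z-disc to the M-band and nebulin runs along the thin filament. Capping proteins and leiomodins set thin filament length, and desmin, the Xin proteins and LIM-domain adaptors tie the lattice to its neighbours and to the membrane. Muscle forms of many of these genes are switched on as myoblasts withdraw from the cell cycle and fuse.

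Total counts ran from 22197606 to 23684077 per library. On every day Runx1 mRNA was higher, not lower, in KO than in WT. On day 6 it stood at 297, 319.7 and 315 against 146, 148 and 165 CPM (counts scaled to the library total). Counts of RNA do not measure the protein, so the label could not be checked. Directions below refer to the libraries as labelled. Replicate 2 of KO day 1 stood apart: it differed from its replicates by a chi-square of 58.4 to 58.8 per degree of freedom, against 3.07 to 27.3 between other replicates, and its deviations followed GC content across genes (r = -0.634). Marker lists also differed between the labels. The summed abundance (TPM, which is scaled for transcript length) of 8 myotube markers was 2.56 to 2.62 in WT and 3.66 to 4.42 in KO on day 0. It was 59.6 to 109 and 171 to 222 on day 1, 2437 to 2633 and 4015 to 7101 on day 3, and 2045 to 2536 and 11965 to 14133 on day 6. Called higher in KO were 0, 5, 7 and 8 of them on days 0, 1, 3 and 6, and 1 was lower on day 1. The 5 myoblast markers summed to 691 to 863 TPM in WT and 986 to 1018 in KO on day 6, with 2 called higher in KO and 2 lower. The 6 markers of cycling cells summed to 339.95 to 353 TPM in WT and 545 to 748 in KO on day 1, to 399.9 to 474 and 644 to 763 on day 3, and to 272 to 338 and 306 to 332 on day 6. Of these 6, 1, 6, 6 and 4 were called higher in KO on days 0, 1, 3 and 6, and none lower. The part of these differences in the values below was not tested, and in bulk samples fewer cells of a type and less RNA per cell cannot be told apart. Of other cell types, the 7 adipocyte markers, led by Pparg or Cebpa, summed to 25.6 to 26.9 TPM in WT and 12.3 to 13.2 in KO on day 0, and to 30.4 to 33.3 and 16.2 to 18.9 on day 6. Both that were tested were called lower in KO on every day, and Adipoq, Lep and Cfd were at 0 counts in every group. The 6 fibroblast markers, mostly Col3a1, summed to 2144 to 2689 TPM in WT and 1040 to 1199 in KO on day 6, where Col3a1 was called lower in KO, Dcn higher and Pdgfra neither, and the other 3 were untested. The 5 smooth muscle markers summed to 438 to 459 TPM in WT and 419 to 657 in KO on day 0, with 2 of 4 tested called higher in KO and none lower, to 2510.1 to 2779 and 1272 to 1731 on day 3, and to 2121 to 2342 and 1477 to 1529 on day 6. All 4 were called lower in KO on days 3 and 6. The 6 cardiomyocyte markers, mostly Nkx2-5, summed to 25.9 to 31.9 TPM in WT and 25.2 to 26.0 in KO on day 6, with 2 of 3 tested called higher in KO. The 6 osteoblast markers, mostly Runx2, summed to 15.4 to 24.1 TPM in WT and 15.3 to 24.3 in KO on day 6, with neither of the 2 tested called.

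By day 6 most of the scaffold genes stood higher in the libraries labelled KO. Genes were tested with quasi-likelihood F-tests in edgeR, adjusted over the 14187 genes by the Benjamini-Hochberg procedure, with a threshold of 0.05. On day 0, 11 of the 39 were higher and 0 lower in KO, beside 7.36% of all tested genes higher and 10.1% lower. On day 1, 16 were higher and 3 lower (22.9% and 19.2% of all tested genes). On day 3, 23 were higher and 3 lower (24% and 19.2%), and on day 6, 25 were higher and 3 lower (22% and 20.8%). The median log2 fold change (log2FC, KO over WT) of the 33 tested genes was 0.68, 0.62, 0.70 and 1.64 on days 0, 1, 3 and 6, against 0.00, 0.03, 0.04 and 0.00 over all tested genes. With genes at 0 counts in a group set at their bound, the first 2 medians were 0.45 and 0.43. Without replicate 2 of KO day 1, 13 were higher and 2 lower on day 1, a fit for which the share of all tested genes was not computed.

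**Figure D1:**
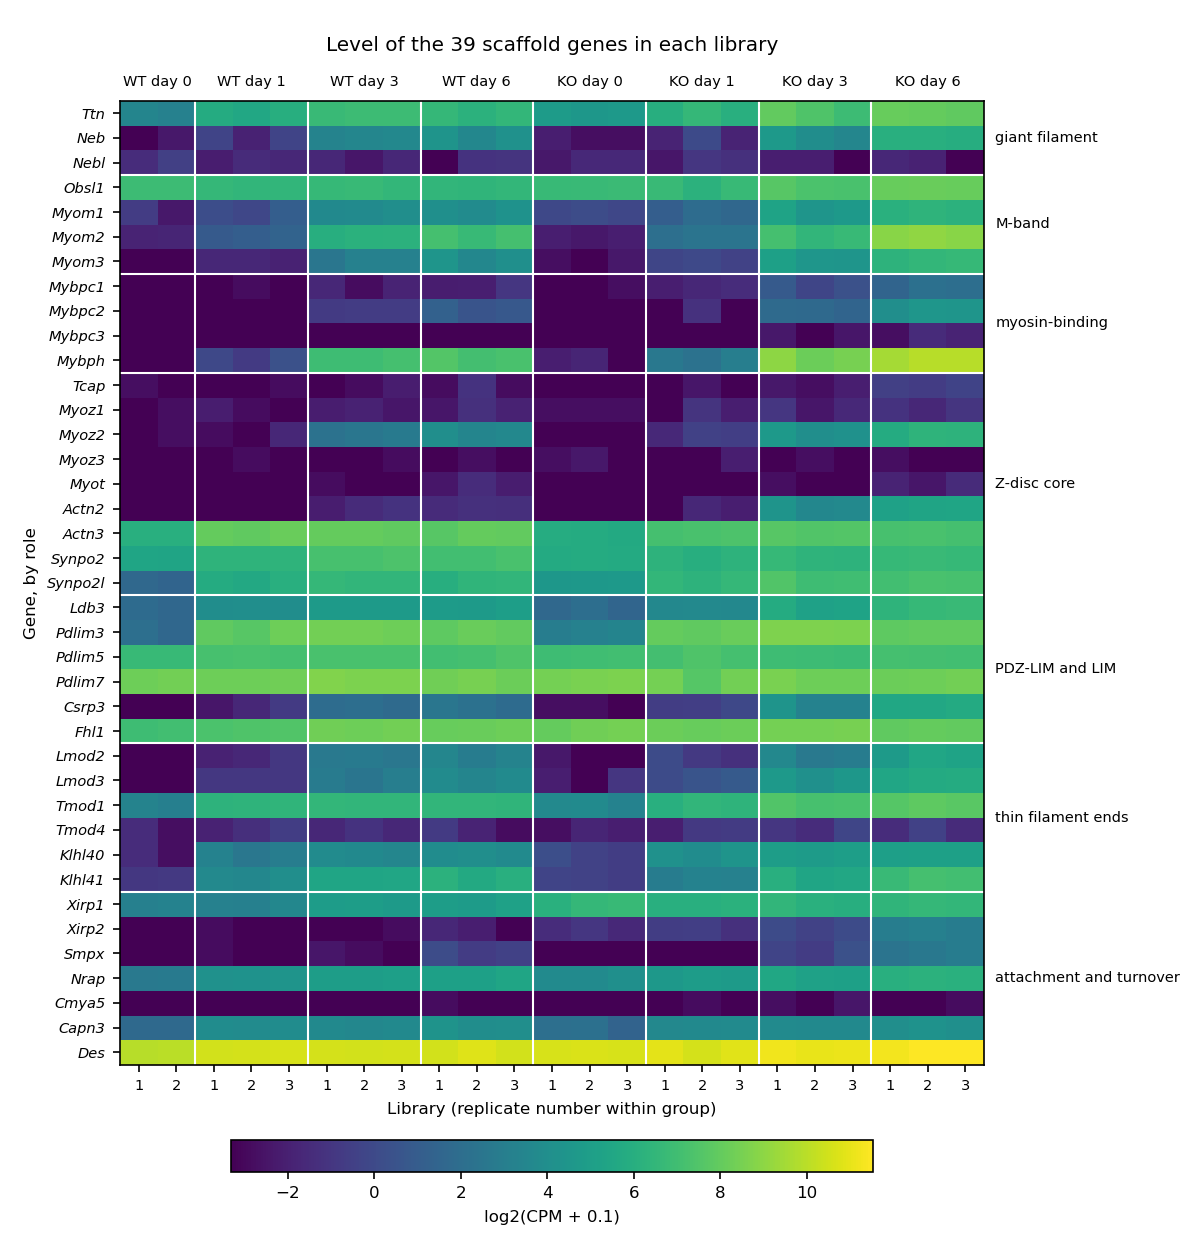
Level of each of the 39 genes in each of the 23 libraries, as log2(CPM + 0.1), with genes in rows grouped by role and libraries in columns grouped by label and day. Most rows brighten from day 0 to day 6 in both labels, Des is the brightest row, and Actn2 is dark in all WT libraries and brighter in the KO libraries of days 3 and 6.

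**Figure D2:**
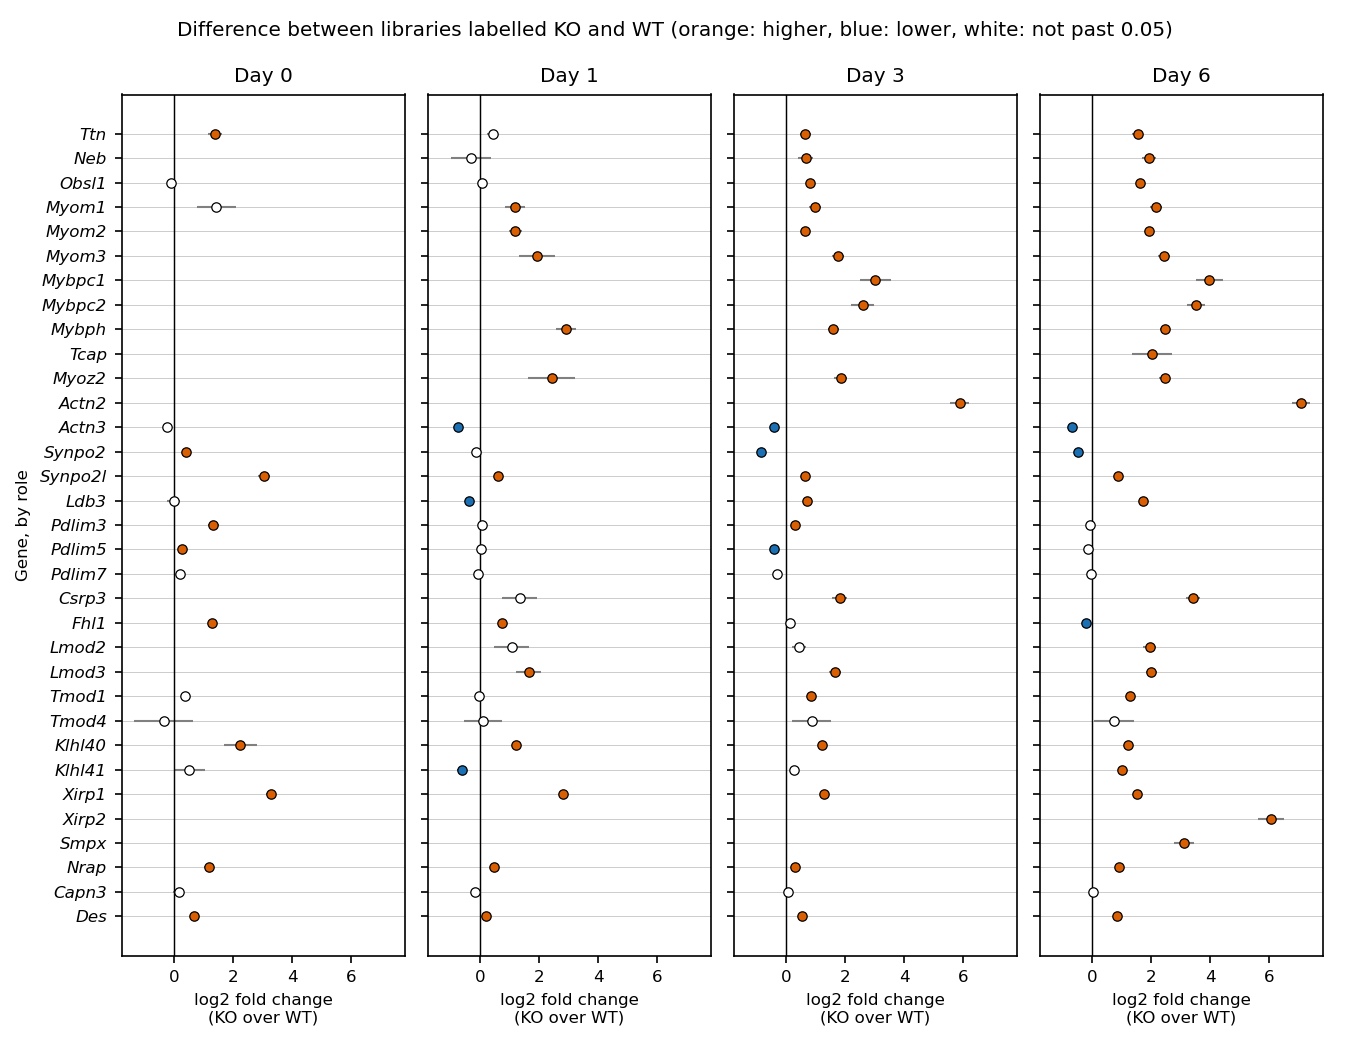
Log2 fold change of the libraries labelled KO over WT on each day for the 33 tested genes, with bars for 1 SE. Orange points were called higher, blue points lower and white points did not pass 0.05; genes with too few counts in a group for a ratio have no point. On day 6, 25 genes are orange and 3 blue, and Actn2 lies farthest to the right at 7.08.

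Across the 4 days, 6 of the genes were called higher in KO each time: Klhl40, Xirp1, Xirp2, Synpo2l, Nrap and Des, beside 3.31% of all tested genes. None was called lower on all 4 days (5.54% of all tested genes), and 5 were called in opposite directions on different days (Ldb3, Pdlim5, Klhl41, Synpo2 and Fhl1, beside 3.93%). With 1 library left out at a time, the calls of Des on day 1 (5 of 6 fits), Nrap on day 3 (3 of 6) and Klhl40 on day 0 (1 of 5) were lost among the first 6, and that of Xirp2 on day 0 was lost with limma on TPM. Among the latter 5, the calls of Ldb3 on day 1 (6 of 6), Pdlim5 on day 0 (5 of 5), Fhl1 on day 6 (4 of 6) and Synpo2 on day 0 (1 of 5) were lost. Those of Pdlim5 and Synpo2 were both lost without WT day 0 replicate 2. Pdlim7, Tmod4 and Capn3 were not called on any day. The remaining genes were called on some days in 1 direction, or were untested. Untested were Nebl, Mybpc3, Myoz1, Myoz3, Myot and Cmya5, none of which exceeded 0.602 CPM in any library.

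The region just upstream of the start is shown for 4 of the genes that stood higher in KO, because each holds short motifs of factors that act in muscle or are named in the study. RefSeq start sites were matched by symbol for 30 of the 39 genes (39 windows of 300 bases, GRCm38.p6, 250 before to 50 after the start). Positions count back from the start, and both strands were searched. The E-box CAGCTG, the palindromic site of myogenic factors, was in 14 of the 39 windows (35.9%) and in 16.3% of 32851 windows of all genes. The RUNX core TGTGGT was likewise in 14 windows (35.9%), against 16.8% of all windows, and the MEF2 motif in 10 (25.6%), against 3.19%. A match is only a run of letters, and some genes have several windows that may overlap. In the 250 bases before each start, printed 5′ to 3′ on the strand of the gene, capitals mark these motifs.
Actn2 (chr13:12340733-12340982, minus strand, RUNX core on the opposite strand at -88): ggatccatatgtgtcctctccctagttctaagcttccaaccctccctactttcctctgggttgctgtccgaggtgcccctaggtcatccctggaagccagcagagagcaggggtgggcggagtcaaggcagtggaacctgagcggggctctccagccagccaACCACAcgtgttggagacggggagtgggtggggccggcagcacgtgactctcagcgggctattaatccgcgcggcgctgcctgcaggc
Mybph (chr1:134193198-134193447, plus strand, RUNX core at -154 and E-box at -79): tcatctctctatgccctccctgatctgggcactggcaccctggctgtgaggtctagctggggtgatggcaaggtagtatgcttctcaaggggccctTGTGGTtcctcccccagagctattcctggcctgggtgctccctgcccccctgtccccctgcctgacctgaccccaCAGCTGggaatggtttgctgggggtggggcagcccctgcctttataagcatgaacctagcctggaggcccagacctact
Myoz2 (chr3:123034988-123035237, minus strand, RUNX core at -198, MEF2 motif at -33 and E-box at -12): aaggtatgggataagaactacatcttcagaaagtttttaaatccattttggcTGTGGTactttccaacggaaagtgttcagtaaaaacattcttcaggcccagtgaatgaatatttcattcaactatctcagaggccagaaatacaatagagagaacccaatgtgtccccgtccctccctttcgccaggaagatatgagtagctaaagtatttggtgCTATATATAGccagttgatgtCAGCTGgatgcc
Xirp2 (chr2:67445752-67446001, plus strand, MEF2 motif at -74): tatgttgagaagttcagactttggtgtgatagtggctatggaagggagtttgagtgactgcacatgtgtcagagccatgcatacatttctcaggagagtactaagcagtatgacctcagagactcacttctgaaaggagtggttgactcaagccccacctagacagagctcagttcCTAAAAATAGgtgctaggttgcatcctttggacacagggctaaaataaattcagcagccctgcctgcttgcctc
Of these windows, those of Actn2, Mybph and Myoz2 hold a RUNX core and that of Xirp2 holds none. The 4 genes were picked for holding motifs and standing higher in KO, so they cannot show whether a motif goes with a call. The motifs did not overlap one another in the printed stretches.

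Of the giant filament genes, Ttn encodes titin, the spring and ruler of the half-sarcomere, and Neb encodes nebulin. On day 0 Ttn stood at 28.7, 23.4 and 25.1 CPM in KO and 10.6 and 9.17 in WT, with no overlap (log2FC 1.38, SE 0.24, edgeR adjusted p = 0.00018). On day 6 the values were 267, 260.1 and 239 CPM in KO and 96.7, 76.0 and 90.5 CPM in WT, again apart (log2FC 1.54, SE 0.18, edgeR adjusted p = 2.72e-07). Between these days the groups were closer. On day 1 the log2FC of 0.43 did not pass the threshold (edgeR adjusted p = 0.059), although it did when KO day 1 replicate 1 or 3 or WT day 1 replicate 3 was left out (0.54, 0.51 and 0.54) and without the low-count filter (0.42). On day 3 Ttn stood at 250.0, 172 and 118 CPM in KO and 108, 118 and 116 in WT. The 3 KO libraries were spread widely and the lowest lay within the WT range, and the call (log2FC 0.66, SE 0.18) was lost without KO day 3 replicate 1 (0.35).

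Neb was nearly silent at first, at 3 or fewer counts in any day 0 library, and reached 65.6, 66.7 and 60.4 CPM in KO and 20.3, 11.6 and 18.5 in WT on day 6 (log2FC 1.93, SE 0.24, edgeR adjusted p = 7.94e-07). All KO libraries of day 6 lay above all WT libraries. On day 3 it stood at 25.8, 15.7 and 11.4 against 10.1, 11.0 and 12.4 CPM, with overlap, and the call of 0.66 fell to 0.28 without KO day 3 replicate 1. It was also lost without any 1 of the WT day 3 libraries (0.59 to 0.74), with RLE scaling, with the replicate block (0.62), with DESeq2 and with limma on TPM. Nebl, a smaller relative of nebulin best known from heart, had no library above 0.602 CPM and was not tested.

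All 4 M-band genes were higher in KO on days 3 and 6. Obsl1, an obscurin-like adaptor that binds titin and myomesin, differed from the others in being well expressed in growth medium. On day 0 Obsl1 stood at 105, 109 and 113 CPM in KO and 118 and 114 in WT, not past the threshold (log2FC -0.09, SE 0.12). On day 6 it stood at 275, 283 and 268 CPM in KO and 87.5, 84.5 and 93.1 in WT (log2FC 1.64, SE 0.10, edgeR adjusted p = 1.1e-11). The KO libraries had more than doubled since day 0, while WT had fallen (-0.39), and the groups did not overlap on day 3 or 6.

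The myomesins Myom1, Myom2 and Myom3, which crosslink myosin filaments, were low on day 0 and rose in both labels. Myom2, the most abundant of them, stood at 4.15, 5.19 and 5.06 against 1.74, 2.04 and 2.52 CPM on day 1 (log2FC 1.19, SE 0.22, edgeR adjusted p = 0.000162). On day 3 the values were 141, 86.2 and 102 against 62.8, 72.0 and 75.1 CPM (log2FC 0.65, SE 0.14), and on day 6 473, 528 and 484 against 143, 104 and 144 CPM (log2FC 1.93, SE 0.14, edgeR adjusted p = 6.38e-11). The KO libraries were above WT on each of the 3 days, by the smallest margin on day 3. Myom1 had log2FC of 1.19, 0.98 and 2.16, and Myom3 1.94, 1.75 and 2.43, on days 1, 3 and 6. The day 1 call of Myom1 was lost with limma on TPM (0.45). The day 1 call of Myom3 rests on 15 to 21 counts per KO library and 4 or 5 per WT library, and was lost without KO day 1 replicate 2 (1.85) and with limma on TPM. Within the summed TPM of the 3 myomesins, Myom2 made up 79.2 ± 1.03% in WT and 76.0 ± 2.35% in KO on day 6 (SD, n = 3 each).

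The myosin-binding genes include the slow, fast and cardiac forms of myosin-binding protein C (Mybpc1, Mybpc2, Mybpc3), which tune crossbridge cycling on the thick filament, and the related Mybph. Mybph was the most strongly expressed of them. It was at 0 counts in both WT day 0 libraries and stood at 6.09, 4.73 and 8.10 CPM in KO and 0.850, 0.467 and 1.20 in WT on day 1 (log2FC 2.90, SE 0.34, edgeR adjusted p = 5.45e-07). On day 3 it reached 507, 296 and 359.6 against 119.7, 120.1 and 143 CPM (log2FC 1.60, SE 0.18, edgeR adjusted p = 2.37e-07), and on day 6 743, 982 and 973 against 192, 139 and 156 CPM (log2FC 2.47, SE 0.19, edgeR adjusted p = 2.93e-10). The labels did not overlap from day 1 on.

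Mybpc2, the fast form, stood at 16.3, 22.4 and 21.4 CPM in KO and 2.32, 1.33 and 1.59 in WT on day 6 (log2FC 3.51, SE 0.30, edgeR adjusted p = 1.91e-08). Mybpc1, the slow form, was much lower, at 2.65, 4.30 and 4.05 CPM in KO and 0.129, 0.133 and 0.419 CPM in WT (log2FC 3.97, SE 0.45, edgeR adjusted p = 2.5e-07, and 4.77 without WT day 6 replicate 3). Both were also apart on day 3, with log2FC of 2.59 and 3.02, although the call of Mybpc1 was lost with limma on TPM on days 1 and 3 (0.10 and 0.35). The day 1 call of Mybpc2 came from 0, 8 and 0 counts in the KO libraries against 0 in WT. It rests on KO day 1 replicate 2, the library that stood apart, and the log2FC was 0 without it. For Mybpc1 the day 1 call came from 3, 5 and 6 counts in KO against 0, 1 and 0 in WT, and its log2FC of 3.42 became 5.27 without WT day 1 replicate 2, which held the 1 count. Mybpc3, the cardiac form, was at 0 counts in all WT libraries and at 1, 6 and 4 counts in KO on day 6. It was not tested.

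The Z-disc core held a pair of paralogs called in opposite directions on days 1, 3 and 6. Actn2 and Actn3 encode the muscle alpha-actinins, the crosslinkers of the Z-disc, with Actn3 the form of fast fibres. Actn2 was at 0 counts in every day 0 library of both labels. On day 3 it stood at 20.2, 11.7 and 12.8 CPM in KO and 0.131, 0.260 and 0.347 in WT (log2FC 5.89, SE 0.32, edgeR adjusted p = 5.91e-11), and on day 6 at 35.7, 41.3 and 42.0 CPM in KO and 0.258, 0.310 and 0.294 CPM in WT (log2FC 7.08, SE 0.30, edgeR adjusted p = 1.02e-12). WT libraries of day 6 held 6, 7 and 7 counts, near the floor of 3 counts that a count of 0 allows, while KO libraries held 809, 960 and 965. On day 1 it had 0, 5 and 3 counts in KO and 0 in WT, and that call ended with limma on TPM, with only the day 1 groups in the fit and in 5 of 6 fits with a library removed, without KO day 1 replicate 2 or 3 or any 1 WT library (3.74 to 4.49).

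Actn3 was expressed from day 0, at 58.0, 55.5 and 52.5 CPM in KO and 65.8 and 65.9 in WT. Every KO library was below both WT libraries, without passing the threshold (log2FC -0.25, SE 0.10), although the difference passed with only the day 0 groups in the fit (-0.25) and with limma on TPM (-0.34). They were called lower afterwards, at 142, 157 and 165 against 259, 238 and 287 CPM on day 1 (log2FC -0.76, SE 0.09, edgeR adjusted p = 6.29e-07), 206, 182 and 185 against 260.3, 265 and 235 CPM on day 3 (log2FC -0.41, SE 0.09) and 147, 155 and 142 against 202, 264 and 245 CPM on day 6 (log2FC -0.68, SE 0.09, edgeR adjusted p = 1.72e-06). No KO library reached the lowest WT library on day 1, 3 or 6. In TPM, which allows levels of different genes to be set side by side, Actn2 made up 0.115 ± 0.00716% of the pair in WT on day 6. In KO its share was 6.71 ± 1.69% on day 3 and 19.8 ± 0.769% on day 6 (SD, n = 3 each). Actn3 was the more abundant alpha-actinin of the pair in every group.

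**Figure D3:**
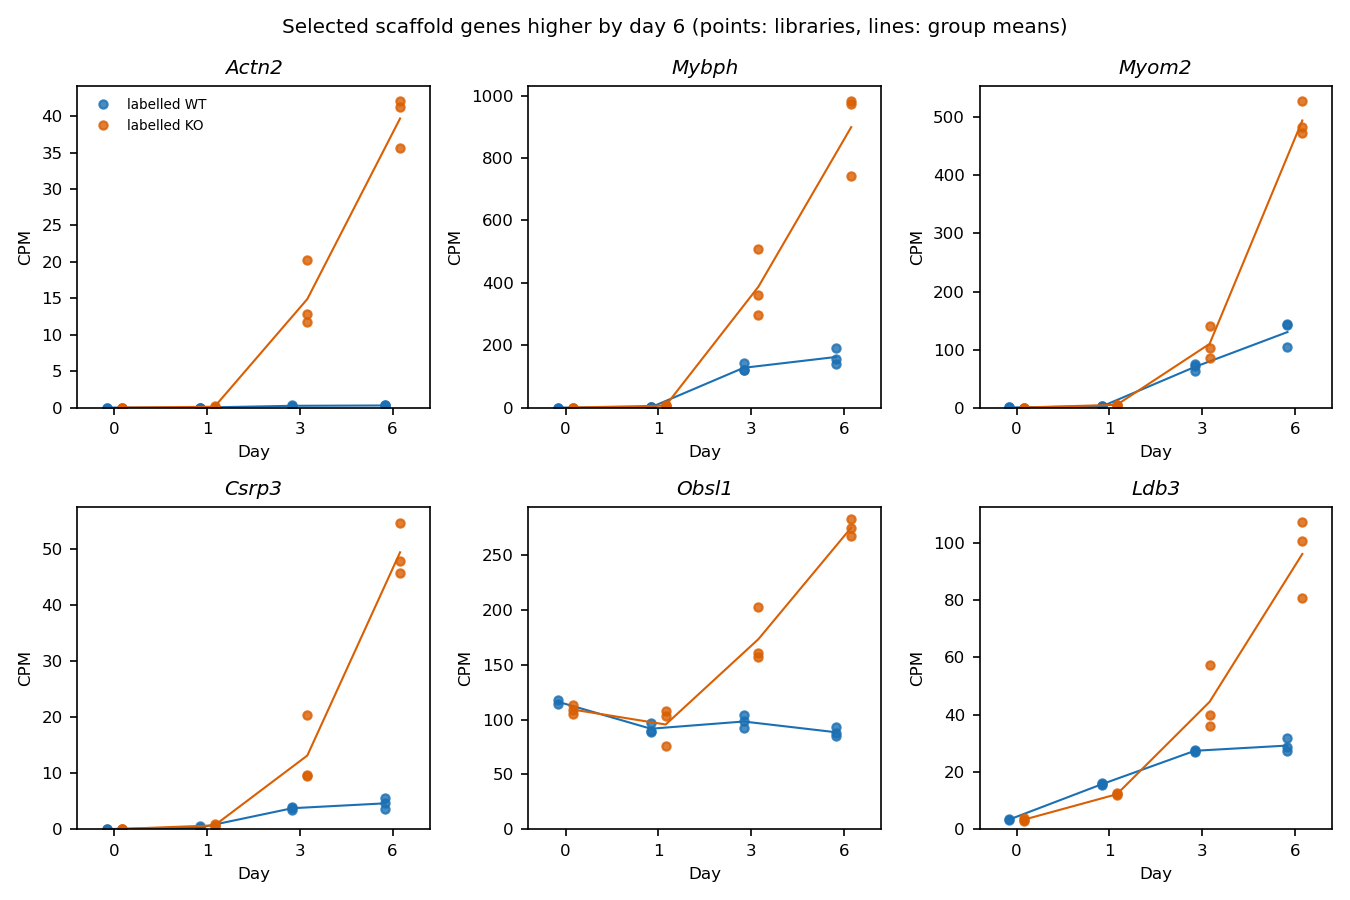
CPM of Actn2, Mybph, Myom2, Csrp3, Obsl1 and Ldb3 by day, with a point for each library and lines through the group means, blue for WT and orange for KO. All KO points of days 3 and 6 lie above the WT points of the same day, and Actn2 is at most 0.347 CPM in WT.

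Myoz2, which encodes a calsarcin that anchors calcineurin at the Z-disc, stood at 25.4, 16.3 and 18.4 CPM in KO and 4.66, 5.55 and 6.46 in WT on day 3 (log2FC 1.85, SE 0.21, edgeR adjusted p = 4.51e-07). On day 6 the values were 57.2, 81.7 and 77.9 CPM in KO and 16.2, 10.9 and 12.3 CPM in WT (log2FC 2.46, SE 0.20, edgeR adjusted p = 1.48e-09). The labels were apart on both days. On day 1 its 5, 15 and 13 counts in KO against 1, 0 and 5 in WT were called (2.43), but not without KO day 1 replicate 2 (2.20) or WT day 1 replicate 1 or 2 (2.15 and 1.89), or with only the day 1 groups in the fit (2.41). The value became 4.19 without WT day 1 replicate 3. Its relatives Myoz1 and Myoz3 and the crosslinker gene Myot were not tested, with at most 9, 3 and 6 counts in any library. Tcap, the cap of titin at the Z-disc, had 14, 12 and 16 counts in KO and 1, 8 and 1 in WT on day 6. Its call (log2FC 2.04, SE 0.68) was lost without KO day 6 replicate 3 (1.93) or WT day 6 replicate 1 or 3 (1.62 each), without the low-count filter and with DESeq2. Without WT day 6 replicate 2, the library with 8 counts, the log2FC was 3.67.

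Synpo2 (myopodin) and Synpo2l encode a pair of actin-bundling Z-disc proteins and were called in opposite directions on days 3 and 6. Synpo2l stood at 23.4, 23.9 and 25.6 CPM in KO and 3.17 and 2.69 in WT on day 0, already well apart (log2FC 3.05, SE 0.21, edgeR adjusted p = 1.59e-10). By day 6 it stood at 130.4, 152 and 148 CPM in KO and 63.8, 83.1 and 88.2 CPM in WT, closer but still without overlap (log2FC 0.87, SE 0.13, edgeR adjusted p = 1.01e-05). Synpo2 began higher in KO, at 54.7, 56.2 and 54.8 against 43.0 and 40.3 CPM (log2FC 0.41, SE 0.11), a call lost without WT day 0 replicate 2 (0.36) and with limma on TPM. On day 3 it was lower in KO, at 97.7, 79.9 and 79.3 against 149, 147 and 165 CPM (log2FC -0.85, SE 0.09, edgeR adjusted p = 1.07e-07), and on day 6 at 98.3, 109 and 98.1 against 134, 132 and 157 CPM (log2FC -0.47, SE 0.09, edgeR adjusted p = 0.000226). All 3 KO libraries lay below all WT libraries on both days. Of the pair's TPM, Synpo2l held 12.2 ± 0.778% in WT (SD, n = 2) and 46.3 ± 1.26% in KO (SD, n = 3) on day 0, and 51.1 ± 3.50% and 72.4 ± 1.37% on day 6 (SD, n = 3 each).

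**Figure D4:**
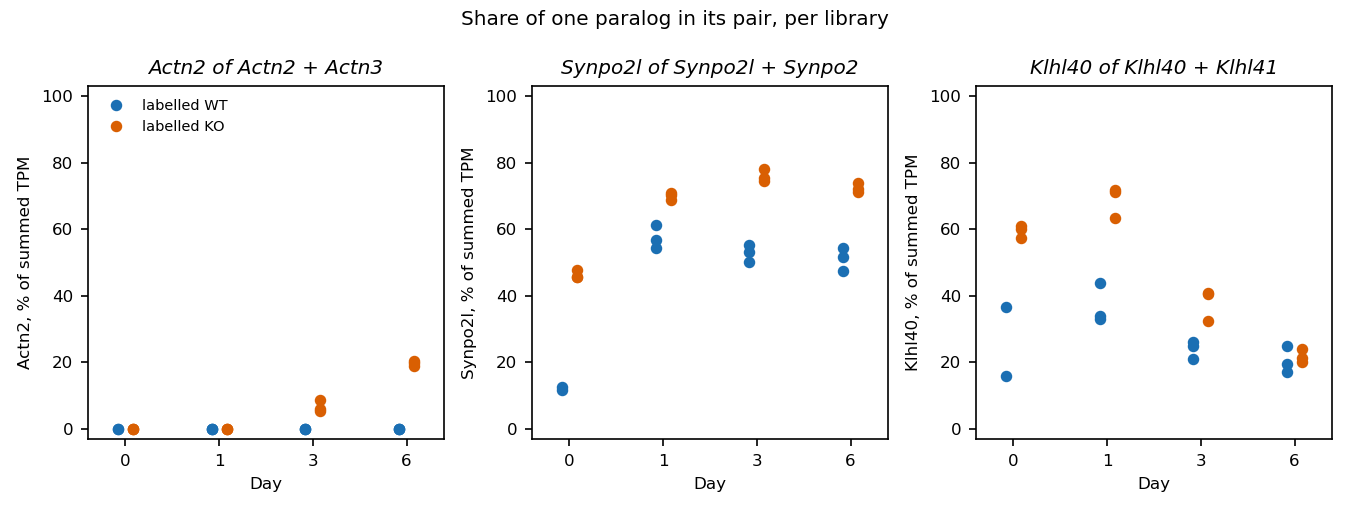
Share of summed TPM held by Actn2 in the pair with Actn3, by Synpo2l in the pair with Synpo2 and by Klhl40 in the pair with Klhl41, by day, with a point for each library (blue WT, orange KO). Actn2 lies near 0% in WT and reaches 19% to 20.5% in KO on day 6, Synpo2l is higher in KO on every day, and Klhl40 is higher in KO up to day 3.

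The PDZ-LIM and LIM genes encode adaptors that bind alpha-actinin through a PDZ domain or other partners through LIM domains, and members were called in both directions. Ldb3 (Cypher or ZASP) was at 80.7, 100.5 and 107 CPM in KO and 28.7, 27.2 and 31.7 in WT on day 6 (log2FC 1.72, SE 0.13, edgeR adjusted p = 1.94e-10), with no overlap. On day 1 the order was the other way, at 12.1, 12.4 and 12.0 against 15.6, 16.0 and 15.5 CPM. That lower call (log2FC -0.37, SE 0.14) was lost in each of the 6 fits that left out 1 library of day 1 (-0.38 to -0.33), with the replicate block (-0.37) and with limma on TPM. Csrp3 (muscle LIM protein) stood at 20.4, 9.65 and 9.42 against 3.74, 4.03 and 3.43 CPM on day 3 (log2FC 1.81, SE 0.25, edgeR adjusted p = 3.22e-06) and 45.8, 47.9 and 54.7 against 5.59, 4.66 and 3.56 CPM on day 6 (log2FC 3.43, SE 0.24, edgeR adjusted p = 9.24e-11). On day 1 its log2FC of 1.35 did not pass the threshold, although the labels did not overlap. It passed without WT day 1 replicate 3 (2.11), without the low-count filter (1.33), with DESeq2 (1.35) and with limma on TPM (0.69).

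Fhl1, a LIM-only protein of skeletal muscle, moved from higher to lower in KO. On day 0 it stood at 258, 322 and 342 CPM in KO and 121 and 132 in WT (log2FC 1.28, SE 0.09, edgeR adjusted p = 5.68e-10), with every KO library far above WT. The log2FC was 0.73 on day 1 and 0.14 on day 3, the latter not past the threshold. On day 6 the order was inverted, at 240.0, 257 and 249 against 277, 288 and 300.3 CPM (log2FC -0.21, SE 0.08). The day 6 call was lost without KO day 6 replicate 1 or 3 (-0.19 and -0.21) or WT day 6 replicate 2 or 3 (-0.23 and -0.17), and without the low-count filter.

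Pdlim3 (actinin-associated LIM protein) was low on day 0, at 7.76, 9.01 and 10.4 CPM in KO and 4.18 and 3.01 in WT, and higher in KO (log2FC 1.33, SE 0.19, edgeR adjusted p = 1.64e-05). From day 1 no library of either label was below 207 CPM, with log2FC of 0.05 on day 1 and -0.07 on day 6, neither past the threshold. On day 3 it was called higher (log2FC 0.30, SE 0.12), which was lost in each of the 6 fits without 1 library of that day (0.26 to 0.34), with RLE scaling, with DESeq2 and with limma on TPM. Pdlim5 was called higher on day 0 (0.29), lost in each of the 5 fits without 1 library (0.26 to 0.31), without the low-count filter, with the replicate block (0.28) and with limma on TPM. It was called lower on day 3, at 123, 116 and 111 against 155, 152 and 154 CPM (log2FC -0.40, SE 0.09, edgeR adjusted p = 0.000764). All KO libraries of day 3 lay below WT. Pdlim7, also called enigma, stood at 299, 304 and 331 CPM in KO and 313, 361 and 290.3 CPM in WT on day 6, with overlapping ranges, and was not called on any day.

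Thin filament ends are nucleated by leiomodins (Lmod2, Lmod3) and capped by tropomodulins (Tmod1, Tmod4), and the Kelch proteins Klhl40 and Klhl41 stabilise leiomodin and nebulin. Lmod3 stood at 25.2, 17.6 and 23.1 CPM in KO and 7.14, 5.33 and 8.24 in WT on day 3 (log2FC 1.67, SE 0.20, edgeR adjusted p = 4.7e-07), and at 44.1, 55.0 and 57.5 CPM in KO and 14.5, 10.7 and 13.7 CPM in WT on day 6 (log2FC 2.01, SE 0.19, edgeR adjusted p = 1.02e-08). Lmod2 separated later. On day 3 it stood at 12.0, 6.39 and 7.49 against 6.44, 6.59 and 5.86 CPM, overlapping and not past the threshold, and on day 6 at 27.1, 43.5 and 39.2 against 11.1, 7.54 and 9.81 CPM (log2FC 1.95, SE 0.22, edgeR adjusted p = 2.2e-07). Tmod1 was not called on day 1 (log2FC -0.04, SE 0.11) and was higher in KO later, at 195, 227 and 216 against 89.6, 88.7 and 83.6 CPM on day 6 (log2FC 1.29, SE 0.11, edgeR adjusted p = 1.3e-09). Tmod4, the skeletal muscle form, was at 0.763 CPM or less in every library and was not called.

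Klhl40 was higher in KO on each day. On day 1 it stood at 18.0, 14.9 and 20.8 CPM in KO and 9.39, 5.81 and 7.65 in WT (log2FC 1.23, SE 0.16, edgeR adjusted p = 1.5e-06), and on day 6 at 33.4, 34.8 and 34.5 CPM in KO and 14.7, 15.8 and 13.8 CPM in WT (log2FC 1.21, SE 0.15, edgeR adjusted p = 4.44e-07). On day 0 it had 24, 14 and 12 counts in KO and 6 and 1 in WT, and the call (2.24) was lost without WT day 0 replicate 2 (1.52) and became 3.90 without WT day 0 replicate 1. Klhl41 had 16, 14 and 12 counts in KO and 10 and 10 in WT on day 0 (log2FC 0.51, SE 0.52, not called). It was lower in KO on day 1, at 7.58, 9.42 and 9.18 against 12.5, 11.8 and 15.9 CPM (log2FC -0.62, SE 0.17, edgeR adjusted p = 0.0044). On day 6 it was higher in KO, at 109, 143 and 134 against 74.4, 52.6 and 65.7 CPM (log2FC 1.00, SE 0.14, edgeR adjusted p = 3.07e-06). The labels were apart on both days, in opposite orders. Klhl40 made up 68.8 ± 4.65% of the pair's TPM in KO and 37.0 ± 6.01% in WT on day 1, and 21.9 ± 2.05% and 20.5 ± 4.12% on day 6 (SD, n = 3 each).

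Of the genes for membrane attachment and turnover, Xirp1 and Xirp2 encode Xin actin-binding repeat proteins. Xirp1 was the most different of the group on day 0 among the genes with counts in both labels. Xirp1 stood at 70.1, 94.1 and 105 CPM in KO and 8.89 and 9.40 in WT in growth medium (log2FC 3.30, SE 0.18, edgeR adjusted p = 1.8e-12). On day 1 the values were 66.9, 67.6 and 71.4 CPM in KO and 9.01, 8.61 and 11.6 CPM in WT (log2FC 2.82, SE 0.15, edgeR adjusted p = 6.56e-13), and on day 6 85.2, 96.8 and 91.1 CPM in KO and 30.4, 28.1 and 35.7 CPM in WT (log2FC 1.53, SE 0.13, edgeR adjusted p = 2.13e-09). The KO libraries of day 6 lay within the range of the KO libraries of day 0, whereas every WT library of day 6 lay above both WT libraries of day 0. Even the highest WT library of any day was below the lowest KO library. Xirp2 was far lower. It had 6, 9 and 5 counts in KO and 0 in WT on day 0, at least 2.27-fold higher against a floor of 3 counts per library, a call lost with limma on TPM (0.15), and 12, 14 and 7 against 1, 0 and 0 counts on day 1 (log2FC 4.63, SE 0.82). It stood at 0.951, 0.670 and 0.942 against 0, 0 and 0.0434 CPM on day 3 (log2FC 5.43, SE 0.74) and reached 7.72, 8.82 and 7.36 against 0.215, 0.133 and 0 CPM on day 6 (log2FC 6.05, SE 0.44, edgeR adjusted p = 1.46e-10). WT never exceeded 5 counts in any library, and these values rest on few WT counts. The log2FC ran from 4.19 to 6.48 on day 1, 4.98 to 7.29 on day 3 and 5.48 to 6.83 on day 6 with 1 library left out, highest without WT day 1 replicate 1, WT day 3 replicate 3 and WT day 6 replicate 1. On each of these days the call held in all of these fits.

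Nrap, which links actin to the membrane in early myofibrils, stood at 13.8, 13.5 and 16.8 CPM in KO and 6.25 and 6.71 in WT on day 0 (log2FC 1.18, SE 0.15, edgeR adjusted p = 3.26e-06). On day 6 it stood at 66.3, 76.2 and 68.7 CPM in KO and 35.4, 34.3 and 43.4 CPM in WT (log2FC 0.90, SE 0.11, edgeR adjusted p = 4.17e-07), with the labels apart on both days. Its day 3 call (log2FC 0.30, SE 0.11) was lost without KO day 3 replicate 1 (0.17) or WT day 3 replicate 1 or 2 (0.29 and 0.28), with RLE scaling, with DESeq2 and with limma on TPM. Des encodes desmin, the intermediate filament of muscle that is present already in myoblasts. It stood at 1574, 1669 and 1598 CPM in KO and 985 and 1029 in WT on day 0 (log2FC 0.68, SE 0.10, edgeR adjusted p = 2.05e-05), and at 2475, 2941 and 2971 CPM in KO and 1463, 1762 and 1499 CPM in WT on day 6 (log2FC 0.83, SE 0.09, edgeR adjusted p = 4.8e-08). The KO libraries were above WT on days 0, 3 and 6. On day 1 the labels overlapped, since KO replicate 2 was as low as WT, and the call (0.22) ended in 5 of 6 fits with a library removed: without KO day 1 replicate 1 or 3 (0.15 and 0.18) or any 1 WT library (0.22 to 0.25). The call also ended under each of the 6 other alternatives (RLE scaling, no filter, the replicate block, only the groups compared, DESeq2 and limma on TPM). It was kept without KO day 1 replicate 2, the library that stood apart (0.34).

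Smpx, a small protein of stretch-bearing muscle, stood at 5.21, 6.11 and 7.45 CPM in KO and 0.988, 0.532 and 0.629 in WT on day 6 (log2FC 3.11, SE 0.35, edgeR adjusted p = 7.9e-07), and on day 3 had 16, 12 and 26 counts against 2, 1 and 0 (log2FC 4.06, and 4.91 without WT day 3 replicate 1). On both days no WT library reached the lowest KO library. Capn3 encodes the muscle calpain, a protease held by titin, and was called on no day. It stood at 16.2, 19.1 and 16.8 CPM in KO and 19.4, 15.5 and 16.0 in WT on day 6, with the ranges overlapping (log2FC 0.04, SE 0.12, not called). Cmya5, encoding myospryn, had at most 2 counts in any library and was not tested.

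**Figure D5:**
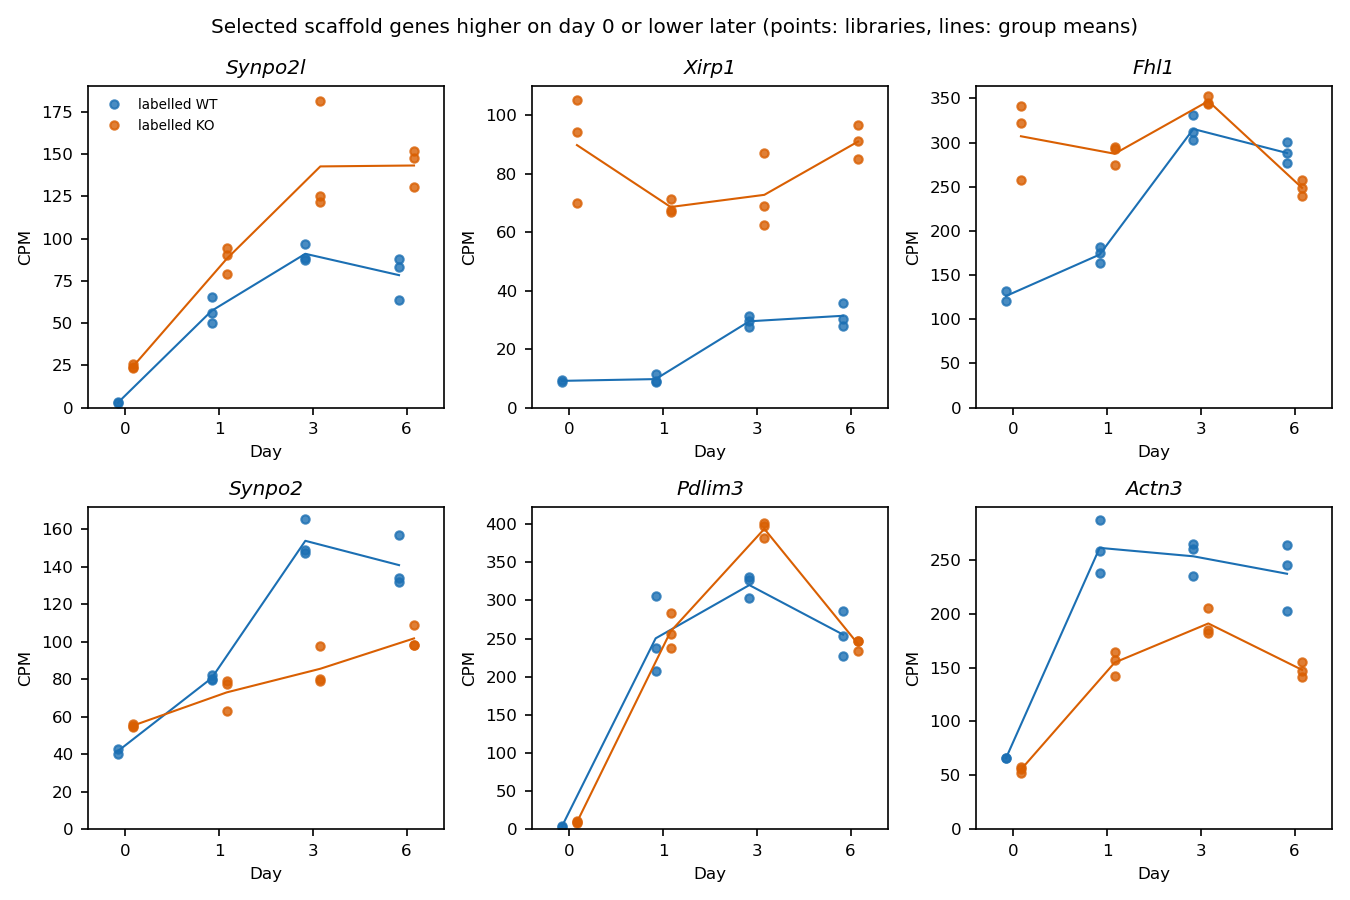
CPM of Synpo2l, Xirp1, Fhl1, Synpo2, Pdlim3 and Actn3 by day, with a point for each library and lines through the group means, blue for WT and orange for KO. Synpo2l, Xirp1 and Fhl1 are higher in KO on day 0, the Fhl1 lines cross by day 6, and Synpo2 and Actn3 are lower in KO on days 3 and 6.

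Within each label most of the scaffold genes were called higher on days 1, 3 and 6 than on day 0. Among those tested, 22 had their highest mean CPM in WT on day 6 and 8 on day 3. In KO these numbers were 27 and 4. In WT, 22 of the 39 were higher and 1 lower on day 1 than on day 0 (27.1% and 27.6% of all tested genes), 27 and 0 on day 3 (29.2% and 29%), and 29 and 1 on day 6 (32.6% and 31.1%). In KO the counts were 23 and 2 on day 1 (27.2% and 25.2%), 28 and 1 on day 3 (30.4% and 27.2%), and 28 and 1 on day 6 (36.6% and 33.5%). Without KO day 1 replicate 2 the KO day 1 counts were 21 and 1, and the share of all tested genes was not computed for that fit. These comparisons share their day 0 libraries within a label. Several of the steepest rises start from 0 counts, where the fold from day 0 to day 6 is a bound against a floor of 3 counts per library, so they have no full order. In WT these were Mybph (at least 1199-fold), Myom3 (at least 122-fold) and Lmod3 (at least 95.7-fold), beside a ratio of mean CPM of 721 for Myom2, which had 4 counts in each WT day 0 library. In KO they were Myoz2 (at least 522-fold), Actn2 (at least 287-fold) and Mybpc2 (at least 145-fold). Mybph and Myom2 had few counts in KO on day 0 (3, 4 and 0, and 3, 2 and 3). Their ratios of mean CPM were 8355 and 4028, the latter with a counting interval from 2042 to 9322. The log2FC of Mybph (12.96) was 13.56 without KO day 0 replicate 2.

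A few genes fell or did not pass the threshold. In WT, Obsl1 was lower on day 6 than on day 0 (log2FC -0.39, SE 0.11, edgeR adjusted p = 0.00457), and Pdlim7 (log2FC 0.02, SE 0.15), Tcap (log2FC 2.42, SE 1.38) and Tmod4 (log2FC 0.53, SE 0.90) did not pass the threshold. In KO, Fhl1 was lower on day 6 (log2FC -0.30, SE 0.08, edgeR adjusted p = 0.00187), and Xirp1 (log2FC 0.02, SE 0.13), Pdlim5 (log2FC 0.12, SE 0.09), Pdlim7 (log2FC -0.24, SE 0.13) and Tmod4 (log2FC 1.63, SE 0.77) did not pass. The mean CPM of Ttn on day 3 was 129.8% of that on day 6 in WT and 70.5% in KO. For 20 of the 33 tested genes all 3 KO libraries of day 3 lay above all 3 WT libraries of day 6, beside 32.3% of all tested genes. Actn2, Mybpc2, Csrp3 and Mybph were among these 20, and Myom2, Neb, Lmod2 and Klhl41 were not. Ttn, Obsl1, Pdlim3, Tmod1, Synpo2l and Fhl1 were also among the 20, and their mean CPM in WT was itself higher on day 3 than on day 6.

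Whether the change since day 0 differed between labels was tested as an interaction. On day 1, 0 genes had a higher change in KO and 7 a lower one (2.64% and 1.31% of all tested genes), on day 3 the counts were 1 and 7 (6.65% and 4.06%), and on day 6 they were 3 and 7 (7.54% and 5.42%). The day 1 count of 7 fell to 2 without WT day 0 replicate 1, to 3 without WT day 0 replicate 2, KO day 0 replicate 1 or WT day 1 replicate 1, and to 4 without KO day 0 replicate 2 or WT day 1 replicate 2 or 3. With limma on log2(TPM + 1) the balance turned, with 10 higher and 7 lower on day 3 (5.03% and 5.94% of all tested genes in that fit) and 19 higher and 5 lower on day 6 (8.2% and 7.71%). Synpo2l was the largest of the lower ones on each day, with log2FC -2.43, SE 0.25, edgeR adjusted p = 1.04e-05 on day 1 and log2FC -2.18, SE 0.25, edgeR adjusted p = 1.34e-06 on day 6. Xirp1 (log2FC -1.76, SE 0.21), Fhl1 (log2FC -1.49, SE 0.12), Pdlim3 (log2FC -1.40, SE 0.22) and Synpo2 (log2FC -0.88, SE 0.14) also had a lower change in KO by day 6. A higher change by day 6 was called for Ldb3 (log2FC 1.73, SE 0.26, edgeR adjusted p = 4.71e-05), Obsl1 (log2FC 1.73, SE 0.15, edgeR adjusted p = 2.96e-08) and Tmod1 (log2FC 0.90, SE 0.18, edgeR adjusted p = 0.00143), all expressed in both labels on day 0. Genes with 0 counts in a label on day 0, such as Actn2, Mybph and Myoz2, gave no usable estimate of this interaction from counts. The 2 WT day 0 libraries enter every interaction.

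On the TPM scale Des had the highest level of the 39 genes on days 0 and 6 in both labels. On day 6 Des stood at 945 ± 70.8 TPM in WT and 1534 ± 85.5 in KO (SD, n = 3 each). In WT it was followed by Pdlim7 (470.3 ± 23.1), Pdlim3 (319.6 ± 36.9), Fhl1 (228 ± 28.6) and Mybph (181 ± 34.3), with Mybph overlapping its next neighbour Actn3 (157 ± 22.9). In KO Mybph came next (909 ± 99.9), ahead of Pdlim7 (437 ± 15.1), Pdlim3 (278 ± 4.15), Fhl1 (181 ± 5.27) and Myom2 (165 ± 8.77). The 39 genes together summed to 1141 ± 0.672 TPM in WT (SD, n = 2) and 1600.4 ± 49.8 in KO (SD, n = 3) on day 0. The sums in WT and KO were 2903 ± 35.2 and 3447 ± 383 on day 3, and 2806 ± 184 and 4712 ± 243 on day 6 (SD, n = 3 each). Desmin alone made up 33.7% of the sum in WT and 32.6% in KO on day 6.

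Further genes of the same machinery were taken from a pair of lists. The 24 assembly factors and sarcomere-associated genes (chaperones, ubiquitin ligases, signalling kinases of the M-band and Z-disc) had 8 higher and 1 lower in KO on day 0 (7.36% and 10.1% of all tested genes), 11 and 3 on day 1 (22.9% and 19.2%), 14 and 4 on day 3 (24% and 19.2%), and 18 and 1 on day 6 (22% and 20.8%). Their median log2FC on day 6 was 1.69 over 23 tested. The extremes on that day were Myo18b, an unconventional myosin required for sarcomere assembly (log2FC 6.89, SE 0.35), and the kinase gene Alpk2 (log2FC -0.62, SE 0.14). By contrast, the 18 non-muscle and broadly expressed relatives of the scaffold genes, such as Actn1, Actn4, Flna and Zyx, had 7 higher and 1 lower on day 0 but 1 higher and 9 lower on day 6, beside the same shares of all genes, with a median of -0.25 over 17 tested. Lmod1, the smooth muscle leiomodin (log2FC 0.72, SE 0.21), and filamin A, Flna (log2FC -1.23, SE 0.09), were the extremes.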

How the data were processed

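Poly(A) RNA sequencing of 23 libraries of C2C12 cells was analysed from a pair of gene tables. The authors deposited estimated counts as whole numbers in one and TPM in the other, per the file headers. Bowtie2, RSEM and the build mm10 are named in the submitters' processing notes. The annotation and the use of strand are not given in the sources used here. In 790 entries the count was 0 with a TPM above 0, and in 108 the reverse. Genes were taken by symbol, and reads of close paralogs may be split by the estimate.

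The counts, whole as deposited, were filtered with filterByExpr (minimum count 10, minimum total count 15), TMM-scaled and fitted with edgeR 4.0.16 in R 4.3.3 in a group-means model over all libraries. 13 contrasts were tested with quasi-likelihood F-tests and Benjamini-Hochberg adjustment over 14187 genes (threshold 0.05). SE is the absolute log2FC divided by the root of F. CPM are TMM-scaled with no prior count, and 3 counts were the floor (0.126 to 0.140 CPM). Floors cover counting error only. Paralog shares are percent of summed deposited TPM, and log2(TPM + 1) was used with limma 3.58.1 as an alternative.

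The members and gene lists were chosen with earlier results of these data known. Values per library are given for the 3 most positive and 3 most negative called members on each day, members called in opposite directions, the extremes of change from day 0 to day 6, the most abundant members on day 6, and others of the 39 by role. Of the further lists, the extremes of day 6 are named. Alternatives were RLE scaling, no filter, DESeq2 1.42.0, the replicate block, only the groups compared, limma on TPM, and each library left out. The procedure was tested on simulated data. Promoter windows are from RefSeq, GRCm38.p6.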

Additional observations from a re-analysis of the deposited data

Results flagged for a closer look

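The change from day 0 differed between the libraries labelled KO and WT, by the test of that difference itself (interaction in edgeR, adjusted p under 0.05), for 12 of the genes. Lower changes in KO come first, as interaction log2FC. Synpo2l had -2.43, -2.40 and -2.18 on days 1, 3 and 6. The values for Pdlim3 were -1.27, -1.03 and -1.40, those for Fhl1 -0.55, -1.14 and -1.49, and those for Synpo2 -0.55, -1.25 and -0.88. Xirp1 differed on days 3 and 6 (-1.99 and -1.76), Pdlim5 on days 3 and 6 (-0.68 and -0.42), Nrap on days 1 and 3 (-0.71 and -0.88), Actn3 on days 1 and 6 (-0.50 and -0.43) and Des on day 1 (-0.46). Higher changes in KO were those of Obsl1 on days 3 and 6 (0.91 and 1.73), Ldb3 on day 6 (1.73) and Tmod1 on day 6 (0.90).

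These differences share the day 0 libraries, of which 2 are WT. Of 11 fits that each left out 1 library, the call was lost for Actn3 on day 1 in 7 fits (log2FC -0.55 to -0.43), Actn3 on day 6 in 8 fits (log2FC -0.53 to -0.38) and Des on day 1 in 9 fits (log2FC -0.53 to -0.34). It was also lost for Nrap on day 1 in 8 fits (log2FC -0.77 to -0.60), Synpo2 on day 1 in 6 fits (log2FC -0.61 to -0.43) and Pdlim5 on day 6 in 8 fits (log2FC -0.50 to -0.30). The ranges are over all 11 fits. The day 1 call of Fhl1 was lost without WT day 0 replicate 1 (log2FC -0.46), and the day 3 call of Pdlim3 without WT day 0 replicate 2 (log2FC -0.81). The other values passed in every one of these fits. With the replicate block, the calls of Actn3 on days 1 and 6, Des and Nrap on day 1 and Pdlim5 on day 6 were lost. With only the groups compared, those of Actn3, Des, Fhl1 and Nrap on day 1 were lost. With limma on TPM, those of Actn3 on days 1 and 6, Nrap and Synpo2 on day 1 and Pdlim5 on day 6 (-0.08) were lost.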

How the results depend on the processing

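Of the 281 log2FC of single genes, 277 kept direction and side of the threshold with RLE scaling, 275 without the filter, 275 with DESeq2, 269 with the replicate block, 265 with only the groups compared and 239 with limma on log2(TPM + 1). Over the fits that left out 1 library, 1565 of 1718 values did so. Members called between KO and WT numbered 8 to 11, 14 to 18, 23 to 26 and 26 to 28 on days 0, 1, 3 and 6 in those fits. The day 1 interaction count of 7 became 4 with the replicate block, 3 with only the groups compared and 2 to 7 with 1 library left out, and the cause was not tested. With limma on TPM, 17 interactions were called on day 3, 10 of them with a higher change in KO, and 24 on day 6, 19 of them higher, and the cause was not tested. Libraries with the same replicate number did not deviate together (mean r from -0.094 to 0.0488), so the numbers were not taken as pairs. With the block 10, 16, 25 and 28 members were called between KO and WT on days 0, 1, 3 and 6. Among the alternative and left-out fits, the share of all tested genes was computed only for the interactions with limma on TPM. On the log2(TPM + 0.1) scale the median over all genes shifted by up to 0.20 between days and was -0.11 and -0.12 between KO and WT on days 3 and 6, where the share of genes above 0 on day 6 went from 50.4% to 37.8%. Values that changed sign between KO and WT on day 6 were Capn3 (-0.234 with limma on TPM), Pdlim5 (0.15 with limma on TPM) and, with 1 library left out, Capn3 (-0.0406 to 0.142), Pdlim3 (-0.151 to 0.00350) and Pdlim7 (-0.0982 to 0.0288). Each of these 3 changed sign without WT replicate 2, and Capn3 also without KO replicate 2. Fhl1 on day 3 was -0.0108 with limma on TPM. Mybpc2 on day 1 ranged from 0 (without KO replicate 2) to 5.02 with 1 library left out, against WT and against day 0 alike. As shares of counts, not per length, Actn2 was 21.1% on day 6 in KO, and Synpo2l was 30.5% and 58.4% in KO and 6.55% and 35.6% in WT on days 0 and 6.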
